A study of Mus with 12 samples.

Results

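The immunoglobulin kappa variable (Igkv) genes were described in mouse whole blood. The members were all genes of the deposited table whose name starts with Igkv and whose estimated counts, summed over the 12 libraries, reached at least 48. This rule kept 77 of the 102 Igkv genes in the table, which holds 25247 genes in all. The summed counts that chose the members ranged from 51 to 2200, with a median of 416. Just inside the limit were Igkv4-90 and Igkv12-89, both with a summed count of 51, and just outside were Igkv8-16 with 38 and Igkv9-123 with 36. The 25 Igkv genes left out held 441 counts together, against 37849 counts for the 77 members. Without the counts of its highest group, 12 of the 77 members would have been under the limit, 10 through Solvent and 2 through scMSC, so that a lower value in the other groups was favoured by the rule for these.

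Blood was collected on day 30 from female BALB/c mice bought at an age of 6 weeks, with 3 libraries in each of 4 groups. Whether each library came from a single mouse is not given in the sources used here. The Solvent group received only the vehicle, a 3:1 mixture of acetone and olive oil, on the back and the right ear. The DNCB group was sensitised with 1% 2,4-dinitrochlorobenzene, a contact sensitiser, and then challenged repeatedly with 0.5% of it, which gives skin inflammation that resembles atopic dermatitis. Both other groups received the same DNCB course and 4 injections of human umbilical cord mesenchymal stem cells (MSC). In the scMSC group all cells went under the skin beside the lesion. In the scivMSC group the same volume was split evenly between that site and the tail vein, so these mice received fewer cells under the skin. None of these groups received the cells without DNCB. The blood was not sorted, and in such bulk samples fewer B lineage cells cannot be told apart from less RNA per cell.

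An antibody is made of heavy chains and light chains, and most mouse light chains are of the kappa kind. During B cell development a single Igkv gene is joined to a kappa joining segment by the RAG recombinase, and the joined exon is spliced to the single constant gene, Igkc. Each B cell clone therefore transcribes mainly a single Igkv gene. The spread of reads over the Igkv genes depends on which genes the clones use and on how much RNA each contributes. Clones that use the same gene are not told apart here, so the spread does not give the number of clones. Resting B cells transcribe their kappa gene at moderate levels, whereas plasmablasts and plasma cells, which secrete antibody, hold very large amounts of kappa mRNA. In the names, the number after Igkv gives the family of similar sequences and the number after the dash gives the place in the locus.

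The 77 members lay on chromosome 6 between positions 67555497 and 70704177 of the table, a stretch of 3.15 Mb. The table annotated all 77 as IG_V_gene, with 30 on the plus strand and 47 on the minus strand. They belonged to 17 families, of which Igkv4 was the largest with 19 members, followed by Igkv6 with 9 and Igkv3 with 8. Sequences within a family are alike, and how reads shared by similar members were assigned is not given in the sources used here, so values of single members carry that uncertainty.

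The libraries held 52179764 to 65139421 estimated counts, where a sequenced fragment was worth about 4 counts. Globin genes took 78.4% to 89.0% of the counts, so that few counts remained for B lineage genes. The 77 members together held 2979 to 7696 counts in the Solvent and scMSC libraries and as few as 609 in DNCB replicate 3 and 654 in scivMSC replicate 2. These totals, about 152 fragments in the lowest library, set the precision of what follows, and 12 counts or fewer in each library of a group, about 3 fragments, was taken as the counting floor.

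The summed level of the Igkv genes was low after DNCB, high again in the scMSC group and, on the scale of total counts, low in the scivMSC group. The level was expressed as FPKM (fragments per kilobase of gene, scaled to the library's total fragments) and summed over the members. In the Solvent libraries it was 308, 303 and 135 FPKM. It was 66.2, 92.3 and 24.8 FPKM in the DNCB libraries, all below the lowest Solvent library. The scMSC libraries had 269, 141 and 132 FPKM, all above the highest DNCB library and within or just below the Solvent range. The scivMSC libraries had 51.5, 30.6 and 55.9 FPKM, all below the lowest scMSC library and within the DNCB range.

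The mean summed level of the Solvent group was 249 FPKM ± 98.5 (SD, n = 3), 4.07-fold above the DNCB group with 61.1 FPKM ± 34.0 (SD, n = 3). In scMSC it was 181 FPKM ± 76.7 (SD, n = 3), which was 2.96-fold above DNCB, and in scivMSC it was 46.0 FPKM ± 13.5 (SD, n = 3), which was 3.93-fold below scMSC. The scivMSC mean was 5.41-fold below the Solvent mean, without overlap of the libraries. No test was made on the sum, because the members were chosen from the same counts. The scale of the libraries matters here: with TMM scaling, which fits a scaling factor per library so that most genes do not differ, the scivMSC libraries had 67.5, 93.0 and 117 FPKM, all above the DNCB libraries, which had at most 54.4 FPKM. They then overlapped with the Solvent libraries, which had 151, 229 and 106 FPKM, and the scivMSC mean was 1.75-fold below the Solvent mean. It was 1.97-fold below the scMSC mean, still without overlap. With TMM scaling the scMSC mean was 1.13-fold above the Solvent mean, with overlap, whereas it lay below it on the scale of total counts. With globin left out of library totals the scivMSC mean was 1.15-fold above the DNCB mean, with 362 and 315 FPKM and overlap. The scMSC mean then stayed below the Solvent mean, with 1241 and 1489 FPKM and overlap.

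**Figure D1:**
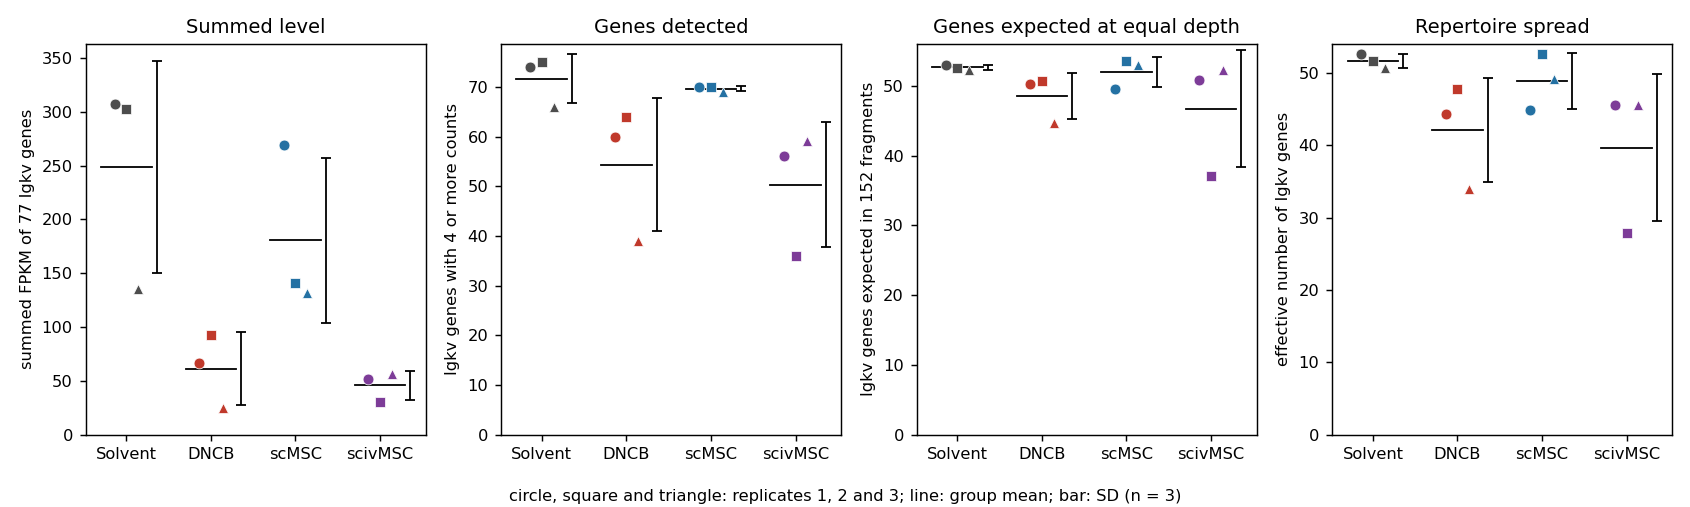
Summed level, number of genes detected, number expected at an equal depth of 152 fragments, and effective number of Igkv genes (vertical axes), for each library by group (horizontal axis). Symbols are libraries, lines are group means and bars are SD (n = 3). All DNCB libraries lie below all Solvent libraries in summed FPKM, whereas at equal depth 10 of the 12 libraries lie between 49.6 and 53.5 genes.

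More Igkv genes were seen where the summed level was high. A member was counted as detected with at least 4 counts, about 1 fragment. The Solvent libraries showed 74, 75 and 66 of the 77 members, and the scMSC libraries showed 70, 70 and 69. In the DNCB libraries 60, 64 and 39 members were detected, and in the scivMSC libraries 56, 36 and 59. The counts of detected members in DNCB and in scivMSC lay below those of every Solvent and every scMSC library. Of the 77 members, 18 were detected in all 12 libraries, among them Igkv1-117, Igkv1-110, Igkv10-96, Igkv4-59 and Igkv6-15. At the other end, Igkv8-34 was detected in a single library, Solvent replicate 1, with all of its 53 counts.

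Most of this difference disappeared at equal depth. The number of members expected in a draw of 152 fragments, the depth of the lowest library, was 53.0, 52.6 and 52.4 in Solvent and 49.6, 53.5 and 52.9 in scMSC. It was 50.3, 50.6 and 44.7 in DNCB, all below the lowest Solvent library but overlapping with scMSC. In scivMSC it was 50.8, 37.0 and 52.3, where the value of 37.0 belonged to replicate 2. Apart from DNCB replicate 3 and scivMSC replicate 2, which also had the fewest kappa fragments, all libraries fell between 49.6 and 53.5 members. Reads within a clone are not independent draws, so these expectations cover counting error only.

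The spread of the repertoire was described by the effective number, the number of equally used Igkv genes that would give the same Shannon diversity, which can reach 77. It was 52.6, 51.6 and 50.7 in Solvent and 44.9, 52.6 and 49.2 in scMSC. The DNCB libraries had 44.4, 47.8 and 34.0, all below the lowest Solvent library. The scivMSC libraries had 45.5, 27.9 and 45.6, also all below the lowest Solvent library. The mean of the Solvent group was 51.6 ± 0.985 (SD, n = 3) and that of the scMSC group 48.9 ± 3.85 (SD, n = 3). The low groups had wider spreads, with 42.1 ± 7.21 (SD, n = 3) for DNCB and 39.7 ± 10.2 (SD, n = 3) for scivMSC. Without DNCB replicate 3 and scivMSC replicate 2 the remaining libraries of both low groups had between 44.4 and 47.8, still below every Solvent library. This measure was not corrected for depth, and a shallow library gives a lower effective number from the same repertoire.

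No single Igkv gene took over any library. The leading member held between 4.96% and 9.49% of the summed FPKM of a library, and the 10 leading members held between 36.0% and 55.8%. The leading genes by FPKM in Solvent were Igkv1-117, Igkv4-59 and Igkv1-110, one in each library. In DNCB they were Igkv4-59, Igkv14-111 and Igkv1-110, and in scMSC they were Igkv1-110, Igkv1-117 and Igkv6-15. Igkv10-96 led in all 3 scivMSC libraries, with 6.33%, 9.49% and 7.12% of the summed FPKM. By share of counts, which favours longer genes, Igkv1-117 led in scivMSC replicate 3 in its place. The leading shares rest on few fragments: by counts, Igkv10-96 held 9.02% in scivMSC replicate 2, with an exact Clopper-Pearson 95% interval of 5.21% to 14.6% at about 4 counts per fragment, and Igkv1-110 held 9.32% in scMSC replicate 1, with an interval of 7.82% to 10.9%. These intervals cover counting error only.

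**Figure D2:**
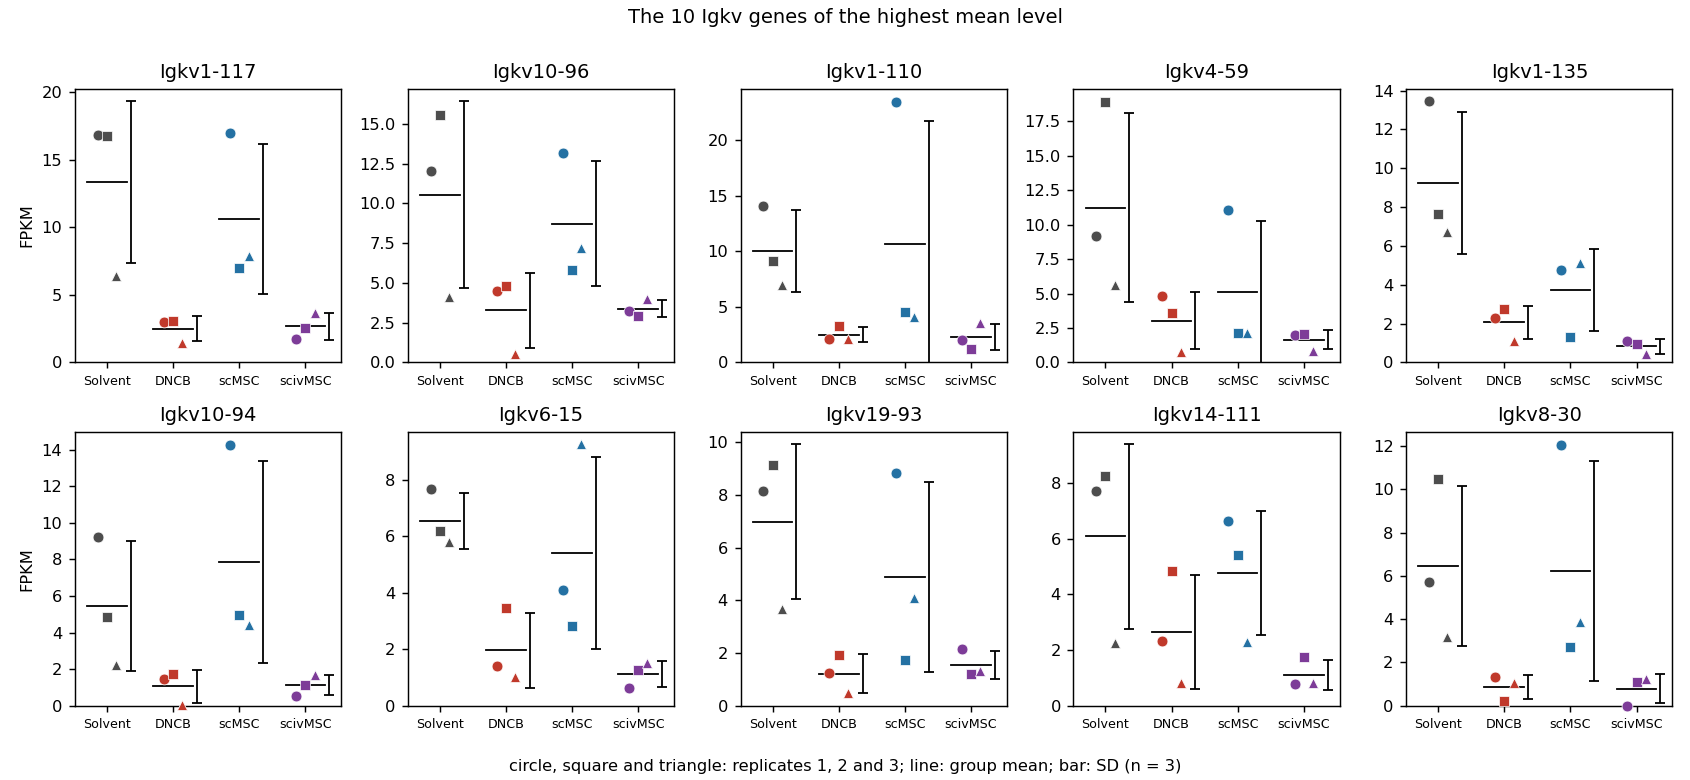
FPKM (vertical axes) of the 10 Igkv genes with the highest mean level, for each library by group (horizontal axes). Symbols are libraries, lines are group means and bars are SD (n = 3, cut at 0). Igkv1-117 sits between 1.44 and 3.09 FPKM in DNCB and between 6.40 and 16.9 FPKM in Solvent.

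Igkv1-117 (plus strand, 68121046 to 68121827) had the highest mean level of the members, 7.28 FPKM over the 12 libraries. Its level was 16.9, 16.8 and 6.40 FPKM in Solvent and 2.98, 3.09 and 1.44 FPKM in DNCB. It was 17.0, 6.99 and 7.88 FPKM in scMSC and 1.74, 2.57 and 3.67 FPKM in scivMSC. Solvent and scMSC libraries were thus all higher than DNCB and scivMSC libraries. In edgeR's quasi-likelihood test over all genes its log2 level fell by 2.40 (SE 0.541, adjusted p = 0.0134) with DNCB and was 2.06 higher (SE 0.536, adjusted p = 0.0269) in scMSC than in DNCB. Between scivMSC and DNCB its log2 difference was 0.08 (SE 0.524, adjusted p = 0.925).

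Igkv10-96 (minus strand, 68631963 to 68632442), the gene that led in every scivMSC library, behaved differently only in its share. Its level was 12.0, 15.5 and 4.09 FPKM in Solvent, 4.48, 4.79 and 0.540 FPKM in DNCB, 13.2, 5.81 and 7.19 FPKM in scMSC and 3.26, 2.90 and 3.98 FPKM in scivMSC. The DNCB libraries overlapped with both Solvent and scivMSC, and no comparison passed the test. In edgeR's quasi-likelihood test the log2 difference of scivMSC against Solvent was -1.63 (SE 0.664, adjusted p = 0.052). Together with its neighbour Igkv10-94, it made up 6.11% ± 1.23 (SD, n = 3) of the summed level for Solvent and 10.3% ± 2.93 (SD, n = 3) for scivMSC. The share was 6.10% ± 3.40 (SD, n = 3) for DNCB and 8.87% ± 1.29 (SD, n = 3) for scMSC. The lowest scivMSC library, with 7.40%, was above the highest Solvent library, with 6.91%, but below some DNCB and scMSC libraries.

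Igkv1-110 and Igkv4-59 each had a library far above the others of its group. Igkv1-110 (plus strand, 68270485 to 68271267) had 23.4 FPKM in scMSC replicate 1 and 4.53 and 4.07 FPKM in the other scMSC libraries. Its other levels were 14.1, 9.10 and 6.92 FPKM in Solvent, 2.11, 3.31 and 2.10 FPKM in DNCB and 2.03, 1.24 and 3.56 FPKM in scivMSC. Igkv4-59 (minus strand, 69438218 to 69438757) had 18.9 FPKM in Solvent replicate 2, against 9.21 and 5.61 FPKM in the other Solvent libraries. It had 4.80, 3.60 and 0.731 FPKM in DNCB, 11.1, 2.14 and 2.13 FPKM in scMSC and 1.98, 2.08 and 0.844 FPKM in scivMSC. For both genes all Solvent libraries were above all DNCB libraries, and for Igkv1-110 all scMSC libraries were above all DNCB and all scivMSC libraries.

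**Figure D3:**
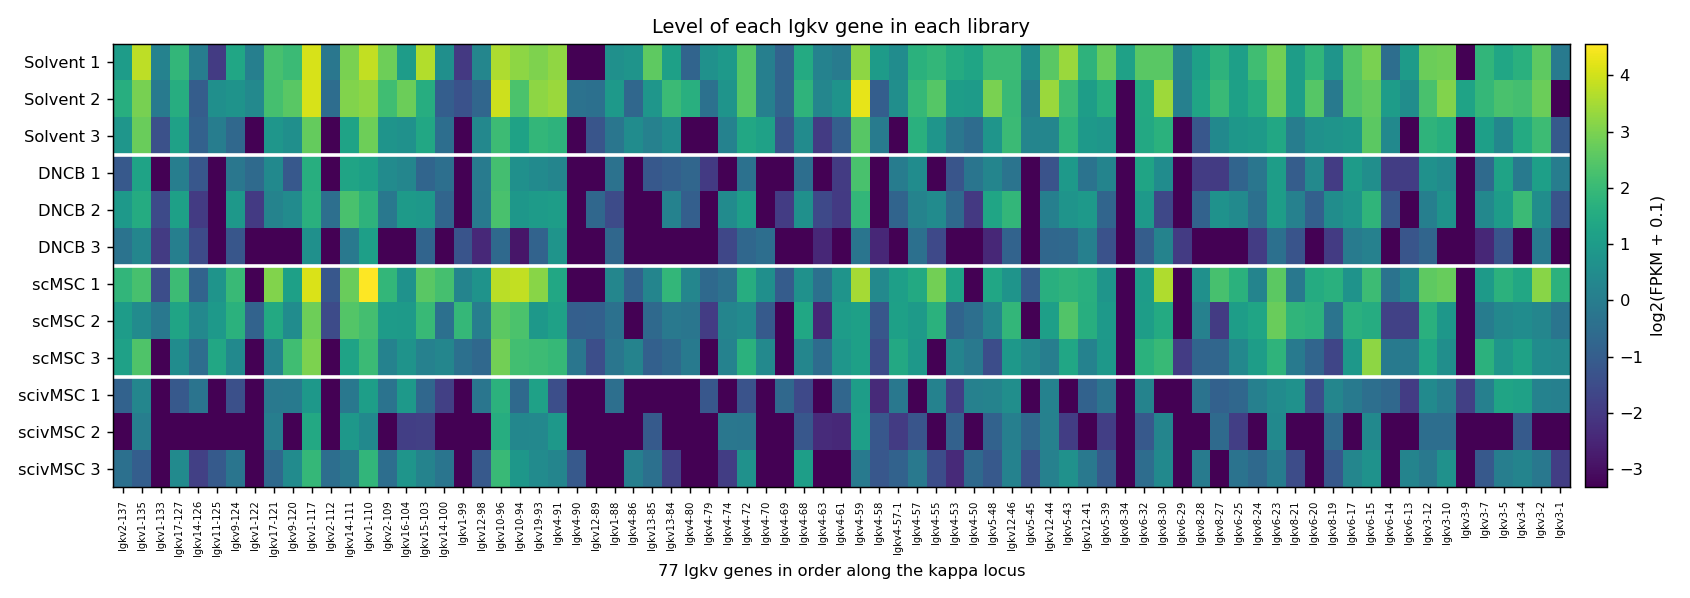
Level of each of the 77 Igkv genes (horizontal axis, in order along the locus) in each library (vertical axis), as log2(FPKM + 0.1) by colour. White lines separate the groups. Dark cells, genes listed at 0, are most frequent in DNCB replicate 3, with 32 genes, and in scivMSC replicate 2, with 39 genes.

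Igkv1 and Igkv4 had similar mean shares in the 4 groups, and the shares of several other families lay apart between some of the groups. For the 7 Igkv1 genes the mean shares of the summed level, in the order Solvent, DNCB, scMSC and scivMSC, were 14.5% ± 1.82, 15.5% ± 6.46, 14.9% ± 2.46 and 13.3% ± 2.43 (SD, n = 3 each). For the 19 Igkv4 genes they were 18.7% ± 2.28, 17.4% ± 1.53, 16.1% ± 1.72 and 18.1% ± 4.71 (SD, n = 3 each). For Igkv1, Igkv4 and Igkv6 the group means differed by less than the largest of the SDs. The same held for Igkv2, Igkv3, Igkv9, Igkv12, Igkv15, Igkv16 and Igkv17. For Igkv6 the largest SD was the 4.27 of scMSC, and the scivMSC libraries of this family, with 9.83% to 10.6%, lay below all Solvent and all DNCB libraries. Between DNCB and Solvent the shares of 5 of the 17 families did not overlap. Igkv14 was higher in DNCB, with 4.27% to 5.96% against 2.46% to 3.27% in Solvent, and so was Igkv17, with 3.30% to 3.86% against 2.47% to 2.83%. Igkv13 was lower, with at most 1.16% against 1.72% to 2.63%, as was Igkv19, with 1.89% to 2.08% against 2.65% to 3.02%, and Igkv11, which was listed at 0 in DNCB. In scivMSC 4 families did not overlap with Solvent: Igkv10 was higher, and Igkv5, Igkv6 and Igkv13 were lower. Igkv5 had 3.45% to 4.47% in scivMSC and 5.20% to 7.22% in Solvent. For the other comparisons the number of families without overlap was smaller. It was 3 for scivMSC against DNCB, 1 each for scMSC against DNCB and scMSC against Solvent, and 0 for scivMSC against scMSC. In random orderings 3 libraries lie apart from 3 others with a probability of 0.1. No test was made on these shares, which add up to a fixed total in each library. Along the locus, the members of the third with the lowest coordinates held 38.8% to 44.0% of the summed level in Solvent, 40.7% to 46.0% in DNCB, 44.3% to 49.6% in scMSC and 37.5% to 48.3% in scivMSC, so that only scMSC and Solvent did not overlap.

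With DNCB, 6 of the 77 members fell and 0 rose, the latter beside 4.85% of all genes. A gene was called when its adjusted p in edgeR's quasi-likelihood test was under 0.05 and its fold change over 2, and these 6 (7.79%) stand beside 1.2% of all 15851 tested genes called lower. The members that fell were Igkv1-117, Igkv1-135, Igkv11-125, Igkv12-44, Igkv19-93 and Igkv3-12. The median log2 difference of the members was -2.22, against -0.31 over all genes. With the members at the floor placed at their bounds, and 4 without a fold left out, the members' median was -1.68. The 3 DNCB libraries lay below all Solvent libraries in 45 members (58.4%), beside 19.6% of all genes, and above them in 0 members, beside 13.7% of all genes. The 10 members that reached the limit only through Solvent are included, and the rule favoured a lower value for them. All tested genes had the same limit.

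Igkv12-44 (minus strand, 69814631 to 69815154) had the largest fall among the called members above the floor. It had 5.71, 10.2 and 1.13 FPKM in Solvent and 0.305, 0.945 and 0.515 FPKM in DNCB, and in edgeR's quasi-likelihood test its log2 level fell by 3.18 (SE 0.793, adjusted p = 0.0236). Igkv19-93 (minus strand, 68736297 to 68736780), the only member of its family, had 8.16, 9.15 and 3.65 FPKM in Solvent and 1.25, 1.92 and 0.469 FPKM in DNCB. It fell by 2.49 (SE 0.693, adjusted p = 0.0436). Igkv1-135 (plus strand, 67609713 to 67610508) had 13.4, 7.63 and 6.70 FPKM in Solvent and 2.28, 2.78 and 1.12 FPKM in DNCB, and fell by 2.15 (SE 0.612, adjusted p = 0.0476). Igkv11-125 (plus strand, 67913573 to 67914052) had 4, 33 and 23 counts in Solvent and 0 counts in all 3 DNCB libraries, which is at least 1.56-fold lower against the floor. All 6 also passed with TMM scaling, where 12 members were called, all lower, beside 4.12% of all genes. Without Solvent replicate 2 or DNCB replicate 3 the number of called members was 0, beside 0.574% and 0.158% of all genes called lower. Without scivMSC replicate 1 or 2, which changes only the shared spread, the number was 14. These 14 (18.2%) stand beside 3.67% and 3.79% of all genes called lower.

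Genes of other blood cells moved strongly with DNCB. The summed level of 10 neutrophil genes was 221 to 445 FPKM in Solvent and 6995 to 10978 FPKM in DNCB, and all 10 rose. Of 14 B cell genes 11 fell, with a median log2 difference of -2.08, and of 10 T cell genes 7 fell, with a median of -1.58. Of all genes 4.85% were called higher and 1.2% lower. The part of a changed cell mixture in the fall of the Igkv genes was not tested.

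Against DNCB, 2 members were higher in scMSC and 0 were lower. These 2 (2.6%), Igkv1-117 and Igkv11-125, stand beside 0.334% of all genes called higher, and 6.86% of all genes were called lower. The median log2 difference of the members was 1.50, whereas the median of all genes was -0.48, and with bounds for the members at the floor it was 1.39, with 11 left out. In 23 members (29.9%) all scMSC libraries were above all DNCB libraries, beside 4.99% of all genes, and in 0 members all were below, beside 30.5%. The 2 members that reached the limit only through scMSC are among the 77. Igkv11-125, with 0 counts in DNCB, had 31, 40 and 54 counts in scMSC and was at least 3.62-fold higher against the floor. With TMM scaling the median of all genes was 0.01, the median of the members was 2.17, and 10 members were called, all higher, beside 2.77% of all genes. Leaving out any one DNCB or scMSC library reduced the 2 called members to 0, beside 0.0694% to 0.17% of all genes called higher.

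Several members that did not pass under total-count scaling passed with TMM scaling. Igkv10-94 (minus strand, 68704508 to 68704978) had 1.44, 1.71 and 0.0393 FPKM in DNCB and 14.3, 4.93 and 4.42 FPKM in scMSC. Its log2 difference was 2.86 (SE 0.889) with an adjusted p of 0.0648 in edgeR's quasi-likelihood test, and 3.41 with an adjusted p of 0.0155 with TMM scaling. Igkv1-110 was 2.06 higher on the log2 scale with an adjusted p of 0.0698, and 2.51 higher with an adjusted p of 0.00997 with TMM scaling.

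In scivMSC against DNCB the members did not share a direction. The single called member was Igkv5-45 (minus strand, 69775750 to 69776344), or 1.3% beside 0.826% of all genes called higher, and 0 members were called lower beside 38.4% of all genes. Igkv5-45 had 0 counts in the DNCB libraries and 0, 12 and 7 counts in the scivMSC libraries, so both groups were at the floor and no fold is given. The groups did not overlap in 2 members (2.6%), both higher, beside 3.14% of all genes, and 50.5% of all genes lay entirely lower. The median log2 difference of the members was -0.36, with 25 members above 0 and 51 below, whereas the median over all genes was -1.46. With TMM scaling the sign of the members' median turned to 1.12, with 66 above 0 and 10 below, and 5 members were called higher, beside 9.42% of all genes. Relative to the median of all genes, the members stood 1.09 higher under total-count scaling and 1.20 higher with TMM scaling.

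Comparing both routes of injection, 8 members were lower in scivMSC than in scMSC and 0 were higher, the latter beside 0.151% of all genes. The 8 (10.4%) stand beside 12.7% of all genes called lower, so this share was near that of all genes. They were Igkv1-99, Igkv4-70, Igkv6-15, Igkv1-110, Igkv6-23, Igkv1-135, Igkv3-12 and Igkv1-117, which include 4 of the 7 Igkv1 genes. With TMM scaling 0 members were called, beside 3.01% of all genes called lower, although 9 had an unadjusted p under 0.05, and the members' median changed from -1.98 to -1.08 while that of all genes changed from -0.95 to -0.08. Leaving out scivMSC replicate 2 or 3, or scMSC replicate 1 or 3, also gave 0 called members. Of all genes 3.73%, 0.473%, 0.151% and 0.297% were called lower in these fits, so the calls became fewer over all genes as well. In 37 members (48.1%) all scivMSC libraries lay below all scMSC libraries, beside 34.9% of all genes. The 2 members that reached the limit only through scMSC were among those compared, and the rule favoured a lower scivMSC value for them.

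Igkv6-15 (minus strand, 70406469 to 70406992) had 4.09, 2.83 and 9.25 FPKM in scMSC and 0.627, 1.25 and 1.52 FPKM in scivMSC. Its log2 difference in edgeR's quasi-likelihood test was -2.22 (SE 0.636, adjusted p = 0.0363). Igkv1-99 (plus strand, 68541644 to 68542422) was listed in scMSC with 23, 87 and 15 counts and in scivMSC with 0 counts in each library, at least 3.22-fold lower against the floor. It had at most 8 counts in every Solvent and DNCB library, and of its 145 counts 125 were in scMSC, so it was a member only through the group against which it was lower. Igkv4-70 (minus strand, 69267888 to 69268443) had 30, 9 and 28 counts in scMSC and 0 counts in all scivMSC libraries, at least 1.81-fold lower.

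**Figure D4:**
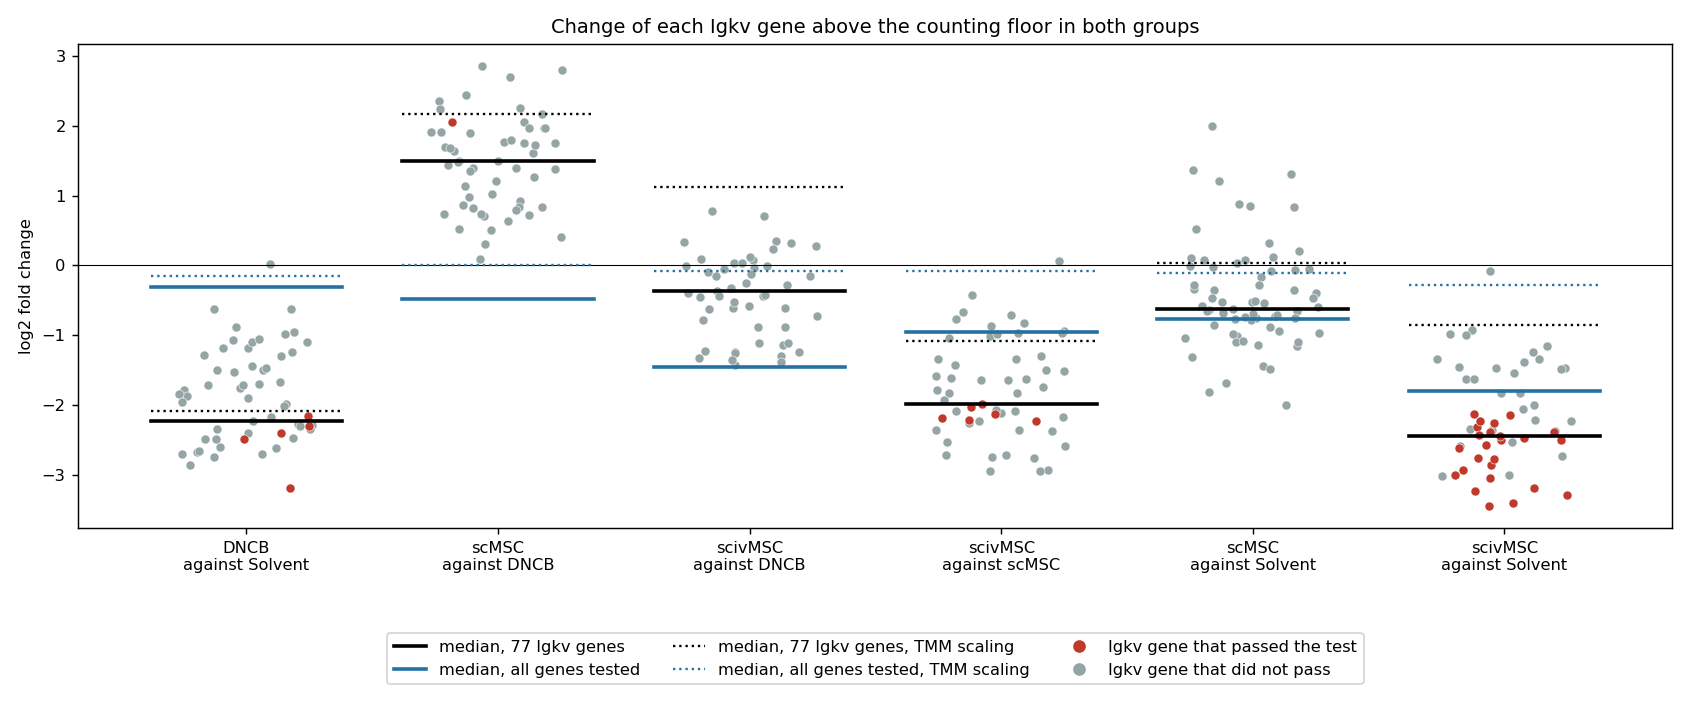
Log2 fold change (vertical axis) of the Igkv genes that were above the counting floor in both groups, for the 6 comparisons (horizontal axis), in red where the gene passed edgeR's quasi-likelihood test. Solid lines are medians of all 77 Igkv genes (black) and of all tested genes (blue) with total-count scaling, and dotted lines are the same medians with TMM scaling. The black line lies at -2.22 for DNCB against Solvent and at 1.50 for scMSC against DNCB.

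Against Solvent, scMSC gave 0 called members in edgeR's quasi-likelihood test, beside 0.0252% of all genes called, and 4 members had an unadjusted p under 0.05. DESeq2 also called 0, and limma on log2(FPKM + 1) called 1. The median log2 difference of the members was -0.63, close to the -0.77 of all genes, and the groups did not overlap in 4 members that were higher (5.19%, beside 4.04% of all genes) and 4 that were lower (5.19%, beside 36.2%). In scivMSC 30 members fell against Solvent, or 39.0%, which was below the 46.6% of all genes called lower, and without Solvent replicate 1 or 2 the number was 16 or 19. The 16 and 19 were 20.8% and 24.7% of the members, beside 32.1% and 42.6% of all genes called lower. The 10 members that reached the limit only through Solvent are included here, and the rule favoured a lower value for them. In 49 members (63.6%) all scivMSC libraries lay below all Solvent libraries, beside 56.5% of all genes. Their log2 differences included -3.45 (SE 0.653, adjusted p = 0.000974) for Igkv1-135, which had 1.12, 0.930 and 0.416 FPKM in scivMSC. Igkv4-70 was at least 2.50-fold lower against the floor, Igkv6-20 at least 6.28-fold and Igkv1-133 at least 1.31-fold. Igkv1-133 reached the limit of the rule only through its 55 counts in Solvent, with 35 counts in the other groups. With TMM scaling 2 members remained called, Igkv1-135 and Igkv4-70, and 8.5% of all genes were called lower.

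The constant gene moved with the variable genes. Igkc, to which every kappa variable exon is spliced, had 214, 216 and 91.5 FPKM in Solvent, 53.0, 65.9 and 24.2 FPKM in DNCB, 193, 100 and 87.3 FPKM in scMSC and 41.9, 22.5 and 46.2 FPKM in scivMSC. In edgeR's quasi-likelihood test Igkc had a log2 difference of -1.86 with DNCB (SE 0.449, adjusted p = 0.019), and its difference of scMSC against DNCB was 1.40 (SE 0.441, adjusted p = 0.067). The summed level of the members over that of Igkc was 1.44, 1.40 and 1.48 in Solvent, 1.25, 1.40 and 1.03 in DNCB, 1.39, 1.41 and 1.51 in scMSC and 1.23, 1.36 and 1.21 in scivMSC. The DNCB and scivMSC libraries lay below all Solvent libraries, and the scivMSC libraries below all scMSC libraries, by 1.13- to 1.18-fold in the means. The separation of DNCB from Solvent was narrow, since replicate 2 of each group had 1.40.

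The members and the B cell genes parted in the animals that received cells. The B cell list held 14 genes, among them Cd79a and Cd79b (parts of the B cell receptor complex) and Ms4a1, which codes for CD20. The summed Igkv level over the summed level of these genes was 1.59, 3.05 and 2.09 in Solvent and 2.04, 1.49 and 1.08 in DNCB. It was 10.3, 6.94 and 4.62 in scMSC and 4.63, 4.99 and 4.55 in scivMSC, all above every Solvent and DNCB library. The mean ratio was 4.75-fold higher in scMSC and 3.07-fold higher in scivMSC than in DNCB. Over Cd79a, Cd79b and Ms4a1 alone these differences were smaller, 3.84-fold and 2.51-fold, also without overlap. As both sums of such a ratio come from the same library, it does not depend on how libraries were scaled.

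Igkc over the B cell genes, which contains no member, was 1.10, 2.17 and 1.42 in Solvent, 1.63, 1.07 and 1.06 in DNCB, 7.44, 4.93 and 3.07 in scMSC and 3.77, 3.67 and 3.77 in scivMSC. Igkc over the summed lambda constant genes, the other light chain, was 3.56, 6.72 and 4.19 in Solvent and 6.46, 5.99 and 3.54 in DNCB. It was 15.0, 14.1 and 8.0 in scMSC, with a mean of 12.4 ± 3.83 (SD, n = 3), and 9.45, 7.50 and 7.56 in scivMSC, with a mean of 8.17 ± 1.11 (SD, n = 3). All 6 libraries of both MSC groups lay above all libraries of the other groups. Both ratios were chosen after the values were seen, so no test is given.

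**Figure D5:**
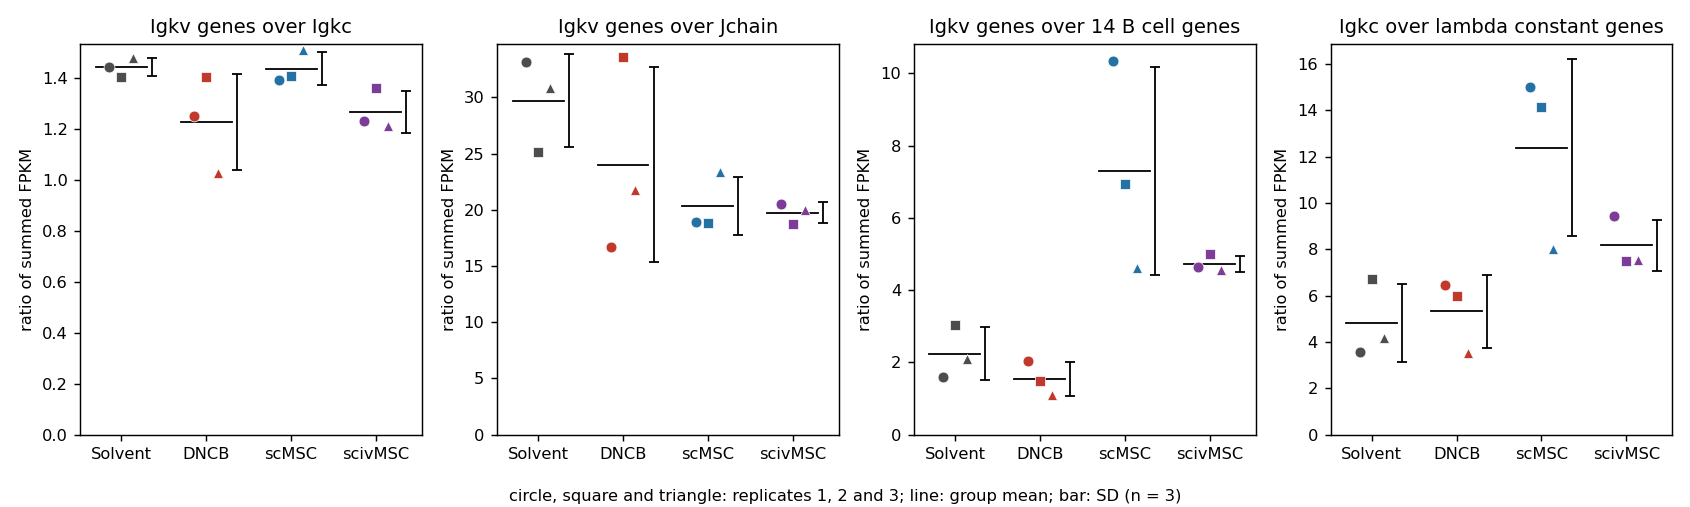
Ratio of summed FPKM (vertical axes) of the Igkv genes over Igkc, over Jchain and over 14 B cell genes, and of Igkc over the lambda constant genes, for each library by group (horizontal axes). Symbols are libraries, lines are group means and bars are SD (n = 3). Over the B cell genes the 6 libraries of both MSC groups lie between 4.55 and 10.3, and the 6 other libraries between 1.08 and 3.05.

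Other antibody genes divided in scMSC against DNCB, some being higher and some not. Jchain, which joins IgA and IgM into polymers and is made by antibody-secreting cells, had 3.96, 2.74 and 1.14 FPKM in DNCB and 14.2, 7.51 and 5.64 FPKM in scMSC. It was 1.79 higher on the log2 scale in scMSC (SE 0.490, adjusted p = 0.0353 in edgeR's quasi-likelihood test). Igha, the IgA heavy chain, was 2.05 higher (adjusted p = 0.0131), Ighg2b, an IgG heavy chain, was 1.95 higher (adjusted p = 0.0162) and Iglv1, a lambda variable gene, was 1.83 higher (adjusted p = 0.0403). By contrast, Ighm, the IgM heavy chain, differed by -0.13 (adjusted p = 0.912), Cd79a by -0.41 (adjusted p = 0.709) and Ms4a1 by 0.05 (adjusted p = 0.988). The members over Jchain ranged from 16.7 to 33.6 in DNCB and from 18.8 to 23.3 in scMSC, with overlap. In the list of plasma cell genes, to which Jchain belongs, the log2 differences of scMSC against DNCB ran from -1.17 to 1.79. Their median was 0.50, against -0.48 over all genes, and with TMM scaling it was 1.04, against 0.01. Without Jchain the summed level of that list averaged 8.89 FPKM in scMSC and 9.94 FPKM in DNCB. In scivMSC Jchain was not higher than in DNCB on the scale of total counts, with means of 2.31 and 2.61 FPKM and overlap.

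The gene lists around the Igkv genes gave the following counts for scMSC against DNCB, beside 0.334% of all genes called higher and 6.86% called lower. Of the 8 tested heavy chain constant genes 2 were higher and 0 lower, of 7 lambda genes 1 was higher and 0 lower, and of 12 plasma cell genes 1 was higher, Jchain, and 0 lower. Of the 14 B cell genes 0 were higher and 1 was lower, and of 11 transcription factors that act on the kappa locus 0 were higher and 1 was lower. Of the 10 T cell genes 0 were called, with a median log2 difference of 0.52. With TMM scaling 5 were higher, beside 2.77% of all genes, with a median of 1.00. The 10 neutrophil genes were all lower, with 579 to 721 FPKM in scMSC. In scivMSC against DNCB 12 of the 14 B cell genes and 2 of the 8 heavy chain constant genes were lower, beside 38.4% of all genes. The share of the heavy chain genes was thus below that of all genes, and that of the B cell genes above it. With TMM scaling these counts became 2 and 0, beside 11.2% of all genes called lower. In their place 5 of the 8 heavy chain constant genes were higher, beside 9.42% of all genes. The genes of recombination and the surrogate light chain, of which 3 of 7 were tested, showed 0 calls in scMSC against DNCB. Rag1, part of the recombinase, was at or below 0.0855 FPKM in every library.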

How the data were processed

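RNA from mouse whole blood was sequenced by the authors as 12 libraries, 3 per group. The labels gave groups and replicate numbers but no batch, and did not say whether a library came from a single mouse. The authors deposited, for each gene, an estimated count and an FPKM value per library. The submitters' processing notes name Bowtie 0.12.2, HISAT2 2.0, StringTie 1.3.0 and the build mm8 without their roles, and strand use in counting is not given in the sources used here. Coordinates are those of the deposited table. For all 77 members they lie within 1000 bases of RefSeq positions for GRCm38, so the named build is uncertain. The deposited counts are whole numbers, but 54.8% of values from 1 to 12 are 4, 8 or 12, so that 1 fragment was taken as about 4 counts.

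The members, gene lists and comparisons were chosen with earlier results of these data known. Genes with a summed count of at least 48 (15851) were fitted together with edgeR 4.0.16 (quasi-likelihood, total-count scaling, 4 group means, 12 libraries, R 4.3.3), with Benjamini-Hochberg adjustment. A call needed an adjusted p under 0.05 and a fold change over 2. Standard errors were derived from the F statistic. Alternatives were TMM scaling, globin left out of library totals, no filter, FPKM of at least 1 in 3 libraries, DESeq2 1.42.0, limma 3.58.1 on log2(FPKM + 1) and log2(FPKM + 0.1), only the 6 libraries compared, the replicate number as a block, and each library left out. Tested on simulated data for DNCB against Solvent (15851 genes), edgeR recovered 142 of 200 genes changed 8-fold, with 7 false calls. The changed genes were drawn only from genes over a limit on the mean count. The recovery therefore does not cover members with few counts or smaller changes. Sums, detected genes and spread were described without a test, as group mean and SD. Genes named were the 10 members of the highest mean FPKM, the leading member of each library, up to 3 called members without group overlap per comparison and direction, and those at the limit of the rule. Igkv5-45 (groups overlapped), Igkv3-12, Igkv6-23 and Igkv8-34 are named as called or singled out after their values were seen. The p-values of the main fit rest on the spread between libraries within groups, pooled over the 4 groups and informed by the spread of other genes.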

Additional observations from a re-analysis of the deposited data

Results flagged for a closer look

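In 8 Igkv genes the change against DNCB differed between the 2 routes of injection, by the test of scivMSC against scMSC itself (edgeR's quasi-likelihood test). All 8 were lower in scivMSC. They were 10.4% of the members, beside 12.7% of all genes called lower, so the members did not exceed all genes in this share. Igkv1-99 was a member only through its counts in scMSC. The adjusted p-values were 0.0402 for Igkv1-99, 0.0394 for Igkv4-70, 0.0363 for Igkv6-15, 0.0407 for Igkv1-110, 0.0336 for Igkv6-23, 0.0399 for Igkv1-135, 0.0472 for Igkv3-12 and 0.0303 for Igkv1-117. With TMM scaling 0 of the 8 passed. Groups of 3 libraries are too small for a search for outlying libraries.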

How the results depend on the processing

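The number of called Igkv genes depended strongly on scaling, filter and tool, and scaling changed the order of the summed levels. DNCB stayed below Solvent and scMSC above DNCB. TMM scaling turned scMSC against Solvent from -0.46 to 0.17 (log2) and scivMSC against DNCB from -0.41 to 1.14. Without globin in library totals the latter was 0.20. In the order TMM scaling, globin left out of library totals, no filter, filter on FPKM, DESeq2, limma on log2(FPKM + 1), limma on log2(FPKM + 0.1) and the 6 compared libraries alone, DNCB against Solvent gave 12, 15, 10, 17, 24, 28, 24 and 23 called members in place of 6, and scMSC against DNCB gave 10, 7, 5, 11, 22, 9, 9 and 11 in place of 2. Of all genes 1.17% to 6.19% were called lower in the first and 0.253% to 4.38% higher in the second under these settings. For scivMSC against DNCB, with 1 called member, TMM scaling gave 5 and DESeq2 10, all higher, beside 9.42% and 12.0% of all genes. No filter gave 2 higher and 2 lower, and the filter on FPKM 2 and 1. The 6 libraries alone and limma on log2(FPKM + 1) gave 0. For scivMSC against scMSC, with 8, TMM scaling and the 6 libraries alone gave 0, beside 3.01% and 0.0189% of all genes called lower. DESeq2 gave 4 (5.19%, beside 4.35%), no filter 14 (18.2%, beside 8.68%) and the filter on FPKM 21 (35.0% of those tested, beside 30.4%). For scMSC against Solvent limma on log2(FPKM + 1) called 1 member, which was higher (1.3%, beside 0.202% of all genes). For scivMSC against Solvent, with 30, TMM scaling gave 2, DESeq2 5 and limma on log2(FPKM + 0.1) 52. These were 2.6%, 6.49% and 67.5% of the members, beside 8.5%, 9.22% and 48.9% of all genes called lower. For scivMSC against scMSC limma called 2 (2.6%, beside 0.132%) and 23 (29.9%, beside 14.6%) with the larger and the smaller pseudocount. The cause of these differences was not tested.

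With TMM scaling the log2 ratio of summed levels was -0.98 for scivMSC against scMSC and -0.81 for scivMSC against Solvent. With at least 12 counts as detection, 39.7, 62.3 and 34.7 members were detected on average in DNCB, scMSC and scivMSC, and at equal depth 52.7 and 52.0 in Solvent and scMSC. DESeq2 turned the log2 difference of Ighg2b, scivMSC against Solvent, to 0.0932 and Ighm in scivMSC against DNCB to 0.40, and TMM scaling turned the latter to 0.29.

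Leaving out 1 library at a time gave 0 to 14 called members for DNCB against Solvent, 0 to 8 for scMSC against DNCB, 0 to 5 for scivMSC against DNCB, 0 to 20 for scivMSC against scMSC and 16 to 36 for scivMSC against Solvent. The highest value of each came without scivMSC replicate 1, and for DNCB against Solvent equally without scivMSC replicate 2. Without scivMSC replicate 1 the 14 were all lower, 18.2% of the members beside 3.67% of all genes. The 8 were all higher, 10.4% beside 0.574%. Of the 5, 3 were higher (3.9%, beside 0.65%) and 2 lower (2.6%, beside 51.4%). The 20 and the 36 were all lower, 26.0% and 46.8% beside 36.4% and 56.7%. For scivMSC against scMSC the number was also below 8 without DNCB replicate 1 (3), scMSC replicate 2 (4) or Solvent replicate 2 (1). Of all genes 6.7%, 6.17% and 7.29% were then called lower. For DNCB against Solvent the number was below 6 without DNCB replicate 1 or scMSC replicate 3 (2 each) and without DNCB replicate 2 or Solvent replicate 1 (1 each). Of all genes 0.246%, 0.763%, 0.631% and 0.309% were then called lower. The log2 ratio of summed levels stayed between -2.45 and -1.65 for DNCB against Solvent and between 1.16 and 1.99 for scMSC against DNCB, but ranged from -0.79 to 0.02 for scivMSC against DNCB. Without both DNCB replicate 3 and scivMSC replicate 2, chosen after the data were seen, 2 members were called for DNCB against Solvent and 0 for scivMSC against scMSC. The 2 were 2.6% of the members, beside 1.0% of all genes called lower, and the 0 stand beside 2.26%. The members over Igkc then differed by -0.12 (log2) between scivMSC and DNCB.

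The replicate numbers did not pair the samples: of 18 same-numbered pairs, 2 had a correlation over 0.1 (range -0.25 to 0.18). With the number as a block, 4, 3, 0, 9, 0 and 27 members were called for DNCB against Solvent, scMSC against DNCB, scivMSC against DNCB, scivMSC against scMSC, scMSC against Solvent and scivMSC against Solvent. The 4, 9 and 27 were lower, 5.19%, 11.7% and 35.1% of the members beside 1.25%, 15.8% and 46.0% of all genes. The 3 were higher, 3.9% beside 0.322%. The libraries held 152 to 1924 kappa fragments, which limits the precision of single members.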
